A study of Mus musculus with 6 samples.

Results

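The glycolysis and pentose phosphate genes described here are a list of 31 genes, taken by symbol from a table of estimated read counts. The list runs from the glucose transporters through the glycolytic enzymes to lactate export, with the regulators Pdk1 and Hif1a, and then through the pentose phosphate pathway. All 31 had a row among the 21017 genes of the table, and all 31 passed the filter on low counts that left 16654 genes for testing. The samples were 6 libraries of group 2 innate lymphoid cells (ILC2s), lymphocytes that make type 2 cytokines and carry no rearranged antigen receptor. All came from the lungs of C57BL/6J mice aged 8 weeks with the IL-10GFP genotype, a green fluorescent reporter of the cytokine IL-10. The mice had 3 intranasal doses of recombinant IL-33 (0.5 µg per mouse), the alarmin that activates ILC2s. Both groups then shared 48 h of culture in which IL-2, IL-4 and IL-7 were each present at 10 ng/mL, and a second sort gave 3 libraries that produced IL-10 and 3 that did not (IL-10-negative). The labels call the cells freshly sorted, and their treatment text describes this culture before the second sort. Separate mice or cultures are not stated for the 3 libraries of a group, and the p-values therefore reflect the spread among these libraries alone, which could be technical.

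Glycolysis splits glucose into pyruvate in the cytosol and yields ATP quickly. Proliferating lymphocytes run it at a high rate and release much of the pyruvate as lactate, which regenerates the NAD+ that the pathway consumes. The pentose phosphate pathway branches off at glucose 6-phosphate: its oxidative part makes NADPH, and its non-oxidative part exchanges sugar phosphates between ribose 5-phosphate for nucleotides and the intermediates of glycolysis. The transcription factor HIF-1, whose oxygen-regulated subunit is encoded by Hif1a, is a known activator of many glycolytic genes, and the letters ACGTG and GCGTG form the core of its binding sites.

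Most steps from glucose uptake to lactate export were slightly higher in IL-10-producing cells, while the first enzyme of the pentose phosphate pathway was lower. Of the 31 genes, 19 rose, 3 fell and 9 did not pass (edgeR, adjusted p under 0.05 over all genes). Over all genes tested, 35.7% were called, 17.1% as higher and 18.6% as lower, against 61.3% of the members as higher. Since 28 members reached 20 CPM (counts scaled for library size) in the higher group, where small changes are easier to call, the same share was taken among the 7590 genes of that level: 52.1% were called, 28.7% as higher and 23.3% as lower, against 18 and 2 of the 28 members. The median log2 fold change of the members was 0.17, against 0.00 over all genes and 0.01 over those with at least 20 CPM. Members were chosen with earlier results of these data known, so these contrasts with other genes describe the list and are no independent test. Changes were small, from a log2 fold change of -0.59 for Eno2 to 0.49 for Slc16a3, and the libraries of the groups did not overlap for 24 members with IL-10-producing cells higher and 2 with them lower (45.2% of all genes did not overlap, 21.7% higher and 23.5% lower). In a test against a change of 1.2-fold, 5 members passed as higher (Slc2a3, Tpi1, Ldha, Slc16a3 and Slc16a1) and 1 as lower (G6pdx), where 7.91% of all genes passed, 2.44% as higher and 5.46% as lower. The shares without overlap and in the 1.2-fold test cover genes of every level and were not taken at 20 CPM or more.

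**Figure D1:**
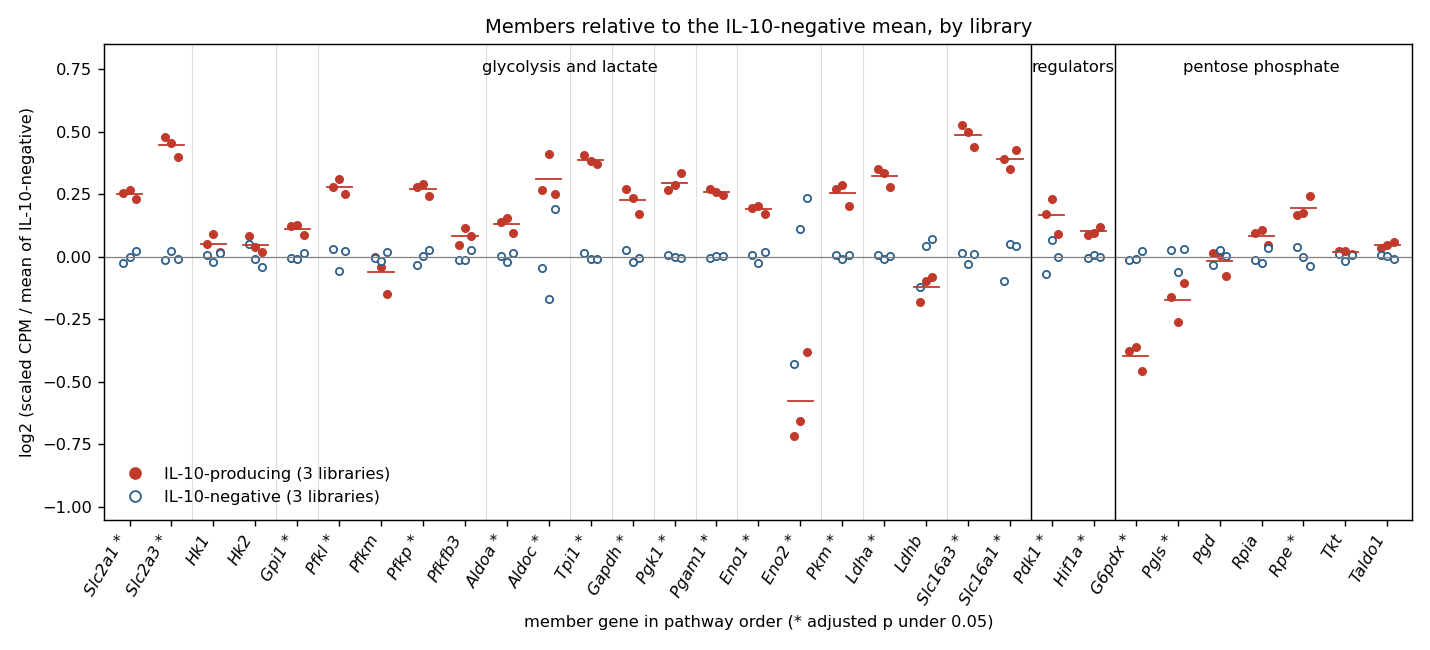
Each point is a library, as the log2 of its scaled CPM over the mean of the 3 IL-10-negative libraries, for the 31 genes in pathway order; red lines are the IL-10-producing means and asterisks mark adjusted p under 0.05. From Slc2a1 to Slc16a1 most red points lie above the open ones, and Hk1, Hk2 and Pfkm lie near 0. The red lines of Eno2, Ldhb, G6pdx and Pgls lie below 0, with overlapping libraries for Eno2 and Ldhb.

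**Figure D2:**
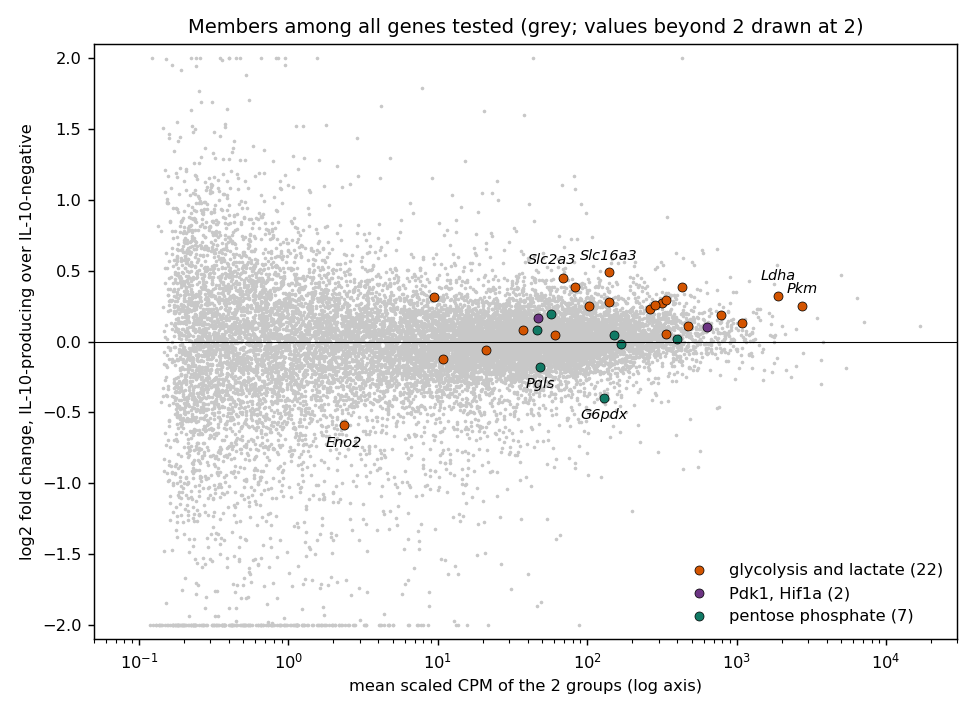
Each grey point is one of the 16654 genes tested, by mean scaled CPM (log axis) and log2 fold change; coloured points are the members. Pkm and Ldha have the highest values of the members, and G6pdx is the member of at least 20 CPM with the largest fall.

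Levels below are CPM scaled with TMM factors, and every fold change divides the IL-10-producing by the IL-10-negative level. Library totals ran from 47012941 to 69511433 counts. Il10, on whose reporter the cells were sorted, stood at 854, 839.5 and 851 CPM in the IL-10-producing and at 13.01, 14.2 and 13.4 CPM in the IL-10-negative libraries, which checks the labels and is no finding. All 13 ILC2 markers listed, such as Gata3 and Il1rl1, were above 5 CPM in IL-10-producing cells, where 4 were higher and 6 lower. All 14 genes listed for T cells fell in IL-10-producing cells (summed 275 to 280 against 393 to 398 CPM). Of these 14, 6 were under 1 CPM there, and 5 were at or above 5 CPM. The sums of this list were mostly Bcl11b (185 against 217 CPM) and Trbc2 (48.2 against 58.4 CPM). These bulk libraries do not show which cells expressed either gene. Other genes of the list fell much further, among them Cd8a (0.0594 against 15.3 CPM), Cd3d (0.450 against 6.21 CPM) and Trac (0.428 against 5.95 CPM). The sums therefore do not show the size of these falls. Of 14 markers of mast cells, basophils and other granulocytes, 13 were tested and all 13 were lower (summed 12.9 to 14.8 against 103 to 109 CPM), and 11 were under 1 CPM in IL-10-producing cells. No marker of either list was at 0 in all 6 libraries. In contrast, 11 of 12 cell-cycle genes were higher and 0 lower (summed 5379 to 5432 against 4285 to 4320 CPM). These sums differed between the same groups of libraries in which the members below were compared, and their part in the results was not tested. In such bulk libraries, fewer cells of a type and less RNA per cell cannot be told apart.

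Lists of other cell types were smaller or mixed. B-cell genes summed to 48.3 to 49.9 against 38.8 to 39.9 CPM (2 of 7 higher, 4 lower). NK-cell genes summed to 77.2 to 88.9 against 20.6 to 22.2 CPM (2 of 5 tested higher, 3 lower). The 2 higher were Gzma (75.9 against 10.3 CPM) and Prf1 (6.24 against 4.79 CPM). The 3 lower were Eomes (0.0971 against 3.07 CPM), Klrb1c (0.0221 against 1.43 CPM) and Klrk1 (0.0364 against 1.71 CPM), so the sum follows Gzma and not these 3. Macrophage and dendritic cell genes summed to 6.76 to 7.36 against 7.49 to 8.55 CPM, epithelial and stromal genes to 119 to 125 against 104 to 111 CPM, mostly Pecam1, and erythroid genes to 2.52 to 3.06 against 4.28 to 4.54 CPM.

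Among IL-10-producing libraries, replicate 3 was the lowest for 14 of the 16 glycolytic and lactate genes that rose. It was also the shallowest of the 6 libraries. Leaving it out left the same 22 members called and added Hk1 and Rpia, for 21 higher and 3 lower.

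The 250 bases upstream of a RefSeq transcript start (GRCm38.p6) are shown for 5 members to place the HIF core letters beside the values. They are Ldha, Pgk1 and Slc16a1, which rose and hold ACGTG, Rpe, which rose and holds neither core, and Hk2, which holds ACGTG and did not pass. They were chosen after their values were seen, among the 18 of 44 member windows that touch no exon annotated in GENCODE M21. Capitals mark ACGTG or GCGTG on either strand, so that the complement reads CACGT or CACGC, and overlapping matches run together. The windows are chr7:46845554-46845803 (plus strand) for Ldha, chrX:106186850-106187099 (plus) for Pgk1, chr3:104638414-104638663 (plus) for Slc16a1, chr1:66700581-66700830 (plus) for Rpe and chr6:82774455-82774704 (minus) for Hk2.
Ldha: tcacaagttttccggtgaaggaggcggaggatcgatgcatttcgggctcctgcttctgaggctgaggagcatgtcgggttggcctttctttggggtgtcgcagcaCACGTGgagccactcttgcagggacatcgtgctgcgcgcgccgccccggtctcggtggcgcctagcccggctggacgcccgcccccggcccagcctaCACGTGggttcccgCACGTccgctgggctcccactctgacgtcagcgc
Pgk1: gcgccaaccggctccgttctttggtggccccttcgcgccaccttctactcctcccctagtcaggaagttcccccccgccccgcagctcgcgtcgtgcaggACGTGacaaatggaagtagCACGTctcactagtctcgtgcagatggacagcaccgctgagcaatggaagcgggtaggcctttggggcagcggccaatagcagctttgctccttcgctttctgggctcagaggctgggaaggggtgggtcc
Slc16a1: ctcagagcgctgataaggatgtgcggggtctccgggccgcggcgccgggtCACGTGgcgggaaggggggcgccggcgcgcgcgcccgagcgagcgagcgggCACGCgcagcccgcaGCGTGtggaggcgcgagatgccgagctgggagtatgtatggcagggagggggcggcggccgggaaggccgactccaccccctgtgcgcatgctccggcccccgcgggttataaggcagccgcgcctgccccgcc
Rpe: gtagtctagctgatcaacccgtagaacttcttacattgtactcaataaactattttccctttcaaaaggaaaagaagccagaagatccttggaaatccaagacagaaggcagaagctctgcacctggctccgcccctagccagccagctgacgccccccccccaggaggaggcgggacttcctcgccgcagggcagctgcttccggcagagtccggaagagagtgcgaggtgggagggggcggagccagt
Hk2: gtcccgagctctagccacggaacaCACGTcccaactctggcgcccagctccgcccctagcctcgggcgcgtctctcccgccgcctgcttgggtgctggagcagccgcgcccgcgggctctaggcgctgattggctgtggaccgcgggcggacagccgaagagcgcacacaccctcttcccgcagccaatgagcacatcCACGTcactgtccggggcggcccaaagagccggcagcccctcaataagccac

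The Ldha window held 5 matches of ACGTG, 4 of them in 2 copies of the palindrome CACGTG, which counts once on each strand and is also the E-box letters. A further RefSeq start of Ldha lies downstream, and its window (chr7:46846832-46847081, plus strand) held 0 of ACGTG and 1 of GCGTG. Pgk1 and Hk2 held 2 matches of ACGTG each, at separate places and with 0 of CACGTG. Slc16a1 held 2 of ACGTG, both in 1 copy of CACGTG, and 2 of GCGTG, and Rpe held 0 of both. RefSeq windows were found for 30 of the 31 members. At least 1 of the 2 cores stood in 77.3% of the 44 member windows and in 55.5% of the 12420 windows of tested genes. ACGTG alone stood in 34.1% and 21.6% of them, GCGTG in 54.5% and 44.3%, and CACGTG in 11.4% and 8.14%. Over all 32851 windows the share with either core was 38.6%. A match describes the letters only.

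Per kilobase of transcript, Pkm and Ldha had the highest values of the members in both groups. The levels of members with near-identical copies, Gapdh and Pgk1 among them, are uncertain, as described below, and so is their place in this order. Pkm (1 annotated copy) and Ldha (3 annotated copies) are also among these members, and none of their copies had a row. Pkm, pyruvate kinase, stood at 1219.8 ± 37.3 scaled CPM per kb in IL-10-producing and 1023 ± 6.69 in IL-10-negative libraries (SD, n = 3), and Ldha, lactate dehydrogenase A, at 1182 ± 31.4 and 947 ± 6.40. Within the IL-10-producing group the ranges of mean ± SD of Pkm and Ldha overlapped, and their difference within each library was not tested. Aldoa, the main aldolase, followed at 747 ± 16.7 and 683 ± 8.87, and Eno1, enolase, at 413 ± 4.79 and 363 ± 5.58. Hexokinases and phosphofructokinases were lower, with Hk1 at 89.1 ± 2.23 and Pfkp at 83.7 ± 1.42 in IL-10-producing cells. Eno2 was the lowest member, at 0.674 ± 0.0866 and 1.01 ± 0.229. On the same per-length scale the pentose phosphate genes lay between 19.8 ± 0.513 (Rpe, IL-10-negative) and 125 ± 0.573 (Tkt, IL-10-producing).

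**Figure D3:**
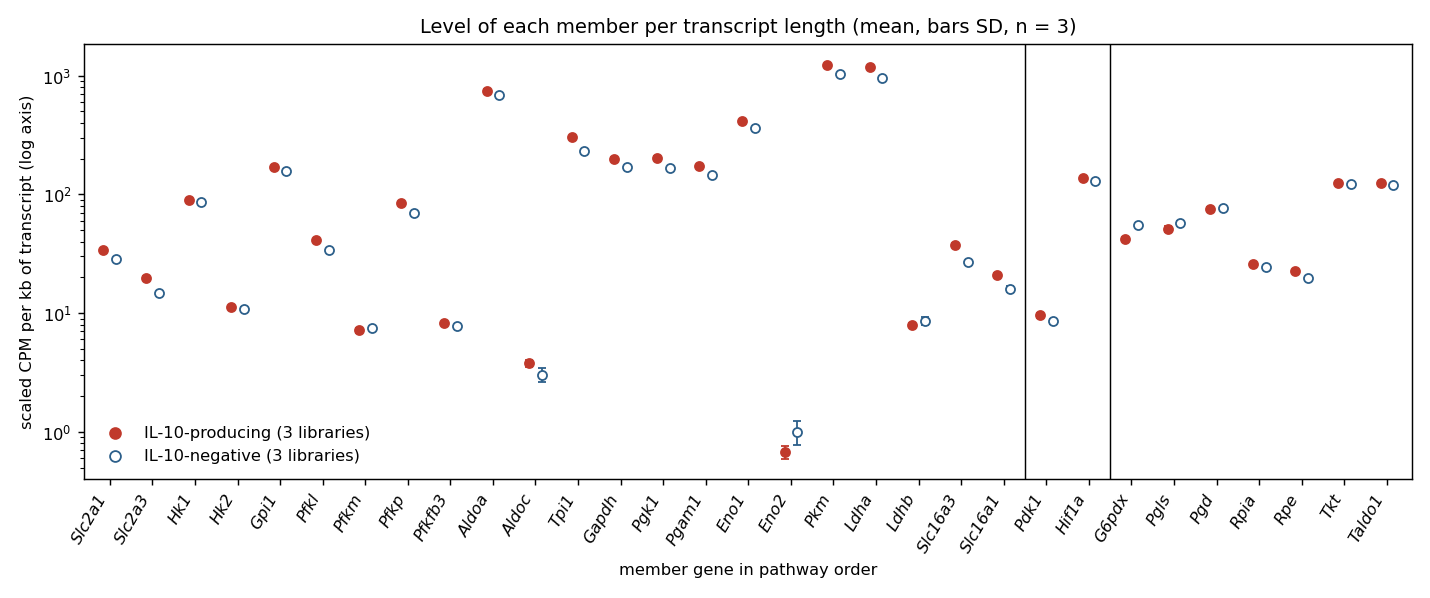
Mean scaled CPM per kb of the principal GENCODE transcript (log axis; bars are SD, n = 3) for each member in pathway order. Pkm and Ldha have the highest values of the members in both groups, and Eno2 has the lowest.

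At glucose entry both transporter genes rose. Slc2a1, which encodes GLUT1 (chromosome 4, 119108711 to 119137983), stood at 112, 113 and 110.0 CPM in IL-10-producing and 92.2, 93.5 and 95.3 CPM in IL-10-negative libraries, and rose 1.19-fold (log2 fold change 0.25, SE 0.026, adjusted p = 1.94e-08). Slc2a3, which encodes the high-affinity transporter GLUT3 (chromosome 6, 122727809 to 122801640), stood at 80.7, 79.5 and 76.5 against 57.4, 58.9 and 57.6 CPM and rose 1.36-fold (log2 fold change 0.45, SE 0.031, adjusted p = 1.84e-11). Every IL-10-producing library was above every IL-10-negative one for both. The Slc2a3 rise was also larger than 1.2-fold by the test against that change (adjusted p = 1.18e-05).

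Neither hexokinase gene, whose enzymes trap glucose by phosphorylation, passed the test. Hk1 (chromosome 10, 62268855 to 62379908) stood at 343, 352 and 335 against 332, 326 and 335 CPM, without overlap although the closest libraries of the groups differed by less than 1 CPM (log2 fold change 0.05 with adjusted p = 0.051). It passed under 5 alternatives with all libraries kept (adjusted p from 0.035 to 0.047). Hk2 (chromosome 6, 82725025 to 82774454), the inducible isozyme, stood at 63.6, 61.6 and 60.8 against 62.1, 59.5 and 58.2 CPM, the groups overlapped, and it did not pass (log2 fold change 0.05 with adjusted p = 0.291).

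The next steps mixed rises with genes that did not pass. Gpi1, glucose-6-phosphate isomerase (chromosome 7, 34201330 to 34230336), stood at 495, 496 and 484 against 454, 452 and 459 CPM, a 1.08-fold rise (log2 fold change 0.11, SE 0.019, adjusted p = 2.59e-05). Among the phosphofructokinase subunits, which catalyse the committed step, Pfkl (chromosome 10, 77986947 to 78010083) stood at 153, 156 and 150.1 against 129, 121 and 128 CPM (log2 fold change 0.28, SE 0.026, adjusted p = 3.4e-09). Pfkp (chromosome 13, 6579768 to 6648777) stood at 349, 352 and 340.5 against 281, 288 and 293 CPM (log2 fold change 0.27, SE 0.021, adjusted p = 1.09e-10). For these 3 genes the groups did not overlap. Pfkp overlaps Pitrm1 on the opposite strand, which stood at 252 ± 6.85 against 192 ± 2.06 CPM, and no source used here says whether reads were counted by strand. In all, 14 members have exons that overlap another gene, 11 of them one on the opposite strand. Pfkm, Pkm, Hif1a, Pgls and Tkt overlap a gene on the same strand, which counting by strand would not separate. The third subunit, Pfkm, stood at 21.6, 20.96 and 19.5 against 21.5, 21.3 and 21.9 CPM, with overlap (log2 fold change -0.06 with adjusted p = 0.408). Pfkfb3, which makes the activator fructose 2,6-bisphosphate, did not pass either, at 37.4, 39.2 and 38.3 against 35.9, 35.9 and 36.8 CPM (log2 fold change 0.08 with adjusted p = 0.113).

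Aldoa (chromosome 7, 126795234 to 126800751), which splits the six-carbon sugar, stood at 1137, 1150.0 and 1101 against 1035, 1017 and 1044 CPM, without overlap, and rose 1.09-fold (log2 fold change 0.13, SE 0.018, adjusted p = 2.3e-06). Aldoc, an isozyme at a low level here, rose from 8.46 ± 1.08 to 10.5 ± 0.654 CPM (log2 fold change 0.31 with adjusted p = 0.00488), and its call was lost without IL-10-negative replicate 2 (adjusted p = 0.0509).

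From triose phosphate to pyruvate, 6 of 7 genes rose and 1 fell (17.1% of all genes tested were called higher and 18.6% lower). Tpi1, triosephosphate isomerase (chromosome 6, 124810586 to 124814296), had the largest rise of these, from 375, 369 and 369 CPM in IL-10-negative to 492, 484 and 480.2 CPM in IL-10-producing libraries, or 1.31-fold (log2 fold change 0.39, SE 0.019, adjusted p = 1.43e-14). Gapdh, the dehydrogenase that yields NADH (chromosome 6, 125161715 to 125166467), stood at 293, 286 and 273 against 247, 239 and 242 CPM (log2 fold change 0.23, SE 0.024, adjusted p = 2.25e-08). Pgk1, the first ATP-forming kinase of the pathway (chromosome X, 106187100 to 106203699), stood at 364, 369 and 382 against 304, 302 and 301 CPM (log2 fold change 0.30, SE 0.021, adjusted p = 1.51e-11). In each of the 3 genes the lowest IL-10-producing library exceeded the highest IL-10-negative one. Pgam1, phosphoglycerate mutase (chromosome 19, 41911871 to 41918664), stood at 311, 308 and 305 against 257, 258 and 258 CPM (log2 fold change 0.26, SE 0.019, adjusted p = 6.42e-11), and the groups did not overlap. Eno1 (chromosome 4, 150236721 to 150248879) stood at 841, 846 and 827 against 737, 722 and 745 CPM (log2 fold change 0.19, SE 0.018, adjusted p = 3.29e-09). Its neuronal isozyme Eno2 (chromosome 6, 124760053 to 124769673) had the opposite sign, at 1.71, 1.78 and 2.16 against 2.09, 3.04 and 3.30 CPM (log2 fold change -0.59, SE 0.17, adjusted p = 0.00868). The Eno2 groups overlapped, its counts were between 92 and 186 per library, and its call was lost without IL-10-negative replicate 3 (adjusted p = 0.0743). Pkm, which forms pyruvate (chromosome 9, 59656368 to 59679375), stood at 3002, 3034 and 2863 against 2499, 2469.9 and 2497 CPM, without overlap (log2 fold change 0.25, SE 0.018, adjusted p = 2.38e-11). The table gives 1 value per gene, so the PKM1 and PKM2 splice forms were not separated.

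Several of these genes have near-identical copies elsewhere in the genome that can share their reads. Annotated transcripts at least 95% identical over at least 300 bases were found for 9 members, and 6 members had such a copy with a row of its own. Pgk1-rs7 was listed above Pgk1 itself, at 453 ± 12.4 against 374 ± 0.770 CPM (log2 fold change 0.27 with adjusted p = 5.11e-11). Pgam1-ps2 stood at 151 ± 5.11 against 128 ± 2.89 CPM, which is 49.4% of the level of Pgam1 over all libraries, and Eno1b at 220.3 ± 6.03 against 186 ± 9.15 CPM, 25.8% of that of Eno1. These 3 copy rows rose by 0.27, 0.23 and 0.24 on the log2 scale, close to Pgk1 (0.30), Pgam1 (0.26) and Eno1 (0.19). Added to their members in a fit chosen after seeing the data, they gave 0.28 for Pgk1, 0.25 for Pgam1 and 0.20 for Eno1, and the same 22 members were called. Gapdh had 77 such copies in the annotation, of which 1 had a row, at no more than 0.181 CPM. No source used here says how reads shared among copies were treated, and the levels of these genes are uncertain.

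**Figure D4:**
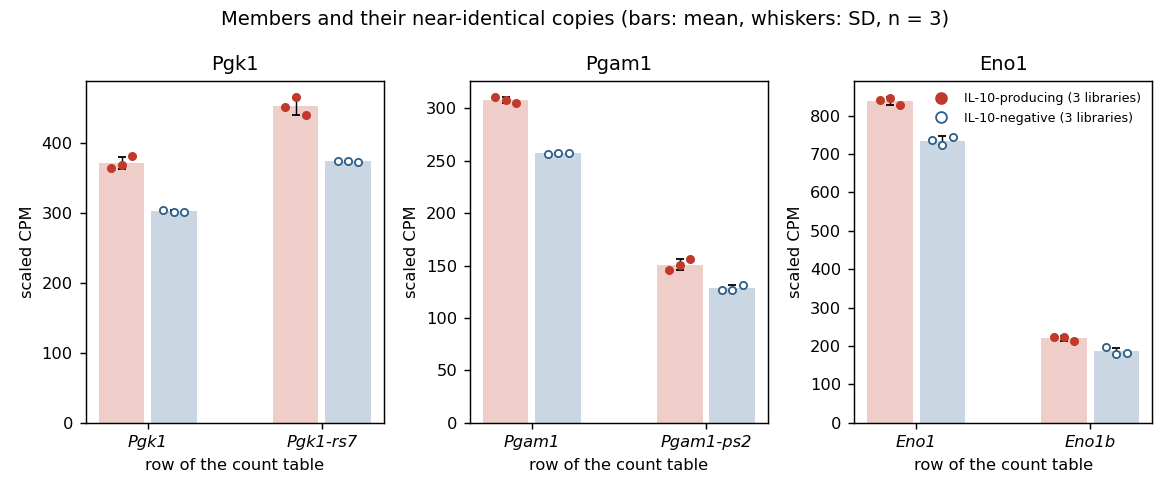
Scaled CPM of Pgk1, Pgam1 and Eno1 and of the row of the near-identical copy of each (points are libraries, bars means, whiskers SD, n = 3). In every pair the IL-10-producing libraries lie above the IL-10-negative ones in both rows.

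The lactate end held the largest rise of the list, that of Slc16a3, and 3 of its 4 genes rose. Of all genes tested 17.1% were called higher, and of those with at least 20 CPM 28.7%. Ldha, which reduces pyruvate to lactate (chromosome 7, 46841475 to 46855627), stood at 2131, 2108 and 2026 against 1681, 1659 and 1676 CPM, a 1.25-fold rise without overlap (log2 fold change 0.32, SE 0.018, adjusted p = 1.99e-13). Ldhb (chromosome 6, 142490249 to 142507957), the isozyme known for the reverse reaction, was scarce, at 9.90, 10.5 and 10.6 against 10.3, 11.6 and 11.8 CPM, with overlap (log2 fold change -0.12 with adjusted p = 0.206). The lactate exporter gene Slc16a3, or MCT4 (chromosome 11, 120948480 to 120960868), stood at 168, 165 and 158 against 118, 115 and 118 CPM and rose 1.40-fold (log2 fold change 0.49, SE 0.026, adjusted p = 7.92e-14). Slc16a1, or MCT1, which carries lactate either way (chromosome 3, 104638668 to 104658462), stood at 93.2, 90.7 and 95.7 against 66.4, 73.7 and 73.3 CPM (log2 fold change 0.39, SE 0.035, adjusted p = 1.52e-09). All 3 genes that rose also passed the test against 1.2-fold (adjusted p = 0.00567, 2.12e-08 and 0.00254 in this order).

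Isozymes of a step were compared by the log2 ratio of their CPM in each library, over 8 pairs, by a two-sided exact permutation test. With 3 against 3 libraries its p cannot go below 0.1, or 0.2 after adjustment over the 8 pairs, so no pair could pass. The Ldha to Ldhb ratio was 7.75, 7.65 and 7.57 in IL-10-producing and 7.35, 7.16 and 7.15 in IL-10-negative libraries, a difference of 0.44 without overlap (exact permutation p = 0.1, adjusted 0.2). Per length, Ldha was 149 ± 9.11 times Ldhb in IL-10-producing and 110.0 ± 8.61 times in IL-10-negative libraries (SD, n = 3). For Slc2a1 to Slc2a3 the log2 ratios were 0.47, 0.50 and 0.52 against 0.68, 0.67 and 0.73, lower in IL-10-producing libraries without overlap (difference -0.19, exact permutation p = 0.1). Per length Slc2a1 remained the more abundant transporter, at 1.72 ± 0.0320 against 1.96 ± 0.0422 times Slc2a3. Pfkm to Pfkp (difference -0.34) and Eno1 to Eno2 (0.75) did not overlap either, with the same p. For Hk1 to Hk2 (0.00), Pfkl to Pfkp (0.01), Aldoa to Aldoc (-0.19) and Slc16a3 to Slc16a1 (0.10) the groups overlapped, with exact permutation p of 0.8, 0.7, 0.3 and 0.2, and the signs of the first 2 turned when single libraries were left out.

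**Figure D5:**
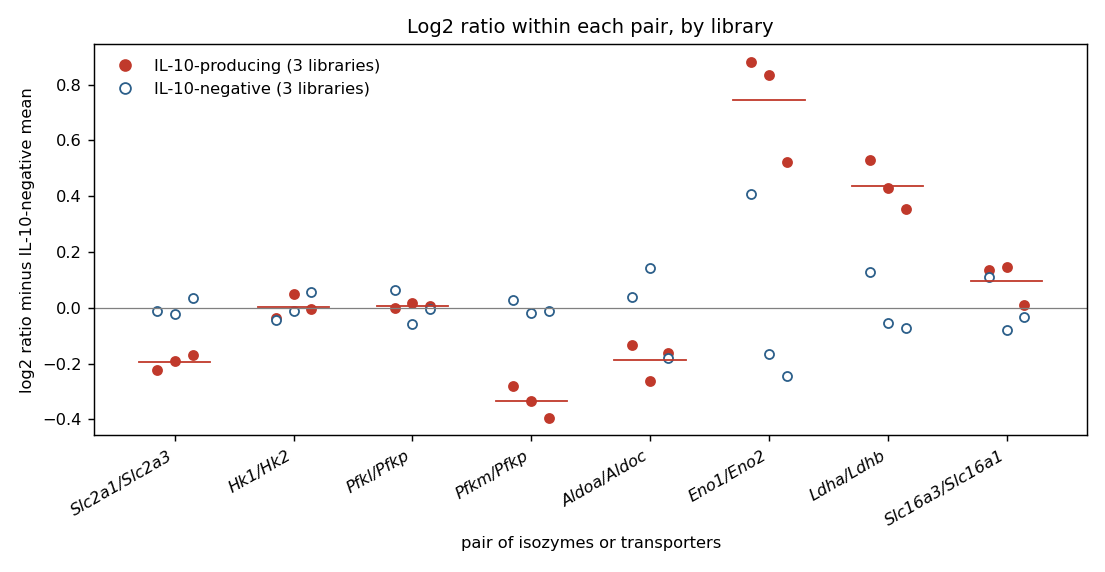
Each point is a library's log2 ratio of 2 genes, less the mean ratio of the 3 IL-10-negative libraries; red lines are the IL-10-producing means. The groups are apart for Slc2a1/Slc2a3, Pfkm/Pfkp, Eno1/Eno2 and Ldha/Ldhb and overlap for the other 4 pairs.

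Both regulators on the list rose by little. Pdk1, a kinase that holds pyruvate back from the mitochondria by inhibiting pyruvate dehydrogenase (chromosome 2, 71873224 to 71903858), stood at 49.9, 51.9 and 47.2 against 42.2, 46.4 and 44.3 CPM (log2 fold change 0.17, SE 0.042, adjusted p = 0.00231). Hif1a (chromosome 12, 73901375 to 73947530) stood at 646, 649 and 659 against 605, 610.1 and 606 CPM, a 1.07-fold rise without overlap (log2 fold change 0.10, SE 0.017, adjusted p = 4.66e-05). HIF-1 is controlled largely through the stability of its protein, which these data do not measure.

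Of the 7 pentose phosphate genes, 1 rose, 2 fell and 4 did not pass. That is 42.9% called, near the 35.7% of all genes and below the 52.1% of genes with at least 20 CPM, and the count is no particular feature of the branch. The 7 genes had a median log2 fold change of 0.02 against 0.25 for the 22 glycolytic and lactate genes. G6pdx, glucose-6-phosphate dehydrogenase, the rate-limiting enzyme that makes the first NADPH (chromosome X, 74409483 to 74429194), stood at 113, 115 and 107 CPM in IL-10-producing and 146, 146 and 149 CPM in IL-10-negative libraries (log2 fold change -0.40, SE 0.027, adjusted p = 7.5e-12). The fall was the largest of any member of at least 20 CPM, the groups did not overlap, and it passed the test against 1.2-fold (adjusted p = 8.5e-05). Its exons overlap Ikbkg on the opposite strand, which stood at 45.3 against 49.4 CPM. Pgls, the lactonase that follows (chromosome 8, 71592176 to 71601092), stood at 46.1, 43.02 and 48.01 against 52.5, 49.5 and 52.7 CPM, also without overlap (log2 fold change -0.18, SE 0.041, adjusted p = 0.00121). Fam129c overlaps the exons of Pgls on the same strand. Pgd, which makes the second NADPH, did not pass, at 171, 170.2 and 160.3 against 166, 173 and 169.5 CPM with overlap (log2 fold change -0.02 with adjusted p = 0.67), and its sign turned without IL-10-producing replicate 3.

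In the non-oxidative branch, Rpe, ribulose-phosphate epimerase (chromosome 1, 66700831 to 66719805), rose from 54.6, 53.1 and 51.8 to 59.6, 59.9 and 62.9 CPM (log2 fold change 0.19, SE 0.035, adjusted p = 6.99e-05), without overlap; Kansl1l, on the opposite strand of its exons, stood at 2.99 against 3.49 CPM. Rpia, the isomerase that forms ribose 5-phosphate, was at 47.8, 48.2 and 46.2 against 44.4, 44.03 and 45.8 CPM (log2 fold change 0.08 with adjusted p = 0.075), and passed without IL-10-producing replicate 3 (adjusted p = 0.0426). Tkt, transketolase, was at 402, 403 and 399.6 against 399.6, 391 and 398 CPM (log2 fold change 0.02 with adjusted p = 0.449), and its sign turned with library size as the only scaling. Taldo1, transaldolase, was at 152, 153 and 155 against 149, 149 and 147 CPM (log2 fold change 0.05 with adjusted p = 0.118). None of these last 3 passed, although in each the IL-10-producing libraries lay above the others by a narrow margin.

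Together the 31 genes took 1.18% to 1.21% of all counts in IL-10-producing and 1.05% to 1.06% in IL-10-negative libraries. The 22 glycolytic and lactate genes summed to 10400 ± 215 against 8781 ± 67.4 CPM, while the 7 pentose phosphate genes summed to 987.5 ± 7.67 against 1010 ± 4.21 CPM (SD, n = 3).

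Other genes of the pathway, in a list of 41 of which 37 had a row and 31 were tested, went both ways, with 7 higher, 7 lower and 17 that did not pass. The 45.2% called lie between the 35.7% of all genes and the 52.1% of genes with at least 20 CPM, so the count does not set the list apart. Those that rose with the smallest p were Slc16a6, a monocarboxylate carrier family member (94.5 ± 1.47 against 80.98 ± 1.17 CPM, log2 fold change 0.22 with adjusted p = 3.5e-07), and Bsg, basigin, the chaperone that brings MCT1 and MCT4 to the surface (404 ± 8.81 against 362 ± 1.76 CPM, log2 fold change 0.16 with adjusted p = 4.9e-07). Pdk3, another pyruvate dehydrogenase kinase, and Pgm2, a phosphoglucomutase, rose by 0.20 and 0.19 on the log2 scale. Ldhd, the mitochondrial dehydrogenase of D-lactate, fell from 20.1 ± 0.174 to 9.56 ± 0.413 CPM (log2 fold change -1.07 with adjusted p = 2.81e-13), and Slc2a6, a transporter of the GLUT family, from 11.6 ± 0.390 to 6.01 ± 0.182 CPM (log2 fold change -0.95 with adjusted p = 2.03e-10). Hk3, a hexokinase typical of myeloid cells, fell from 3.55 ± 0.442 to 0.458 ± 0.125 CPM (log2 fold change -2.97 with adjusted p = 1.25e-11) in libraries whose granulocyte markers were also lower. H6pd, which runs the same oxidative reaction as G6pdx in the endoplasmic reticulum, fell from 57.4 ± 1.81 to 51.3 ± 0.887 CPM (log2 fold change -0.16 with adjusted p = 0.000505).

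Among 20 regulators of glucose use, 19 were tested, 3 rose, 7 fell and 9 did not pass. The 52.6% called are close to the 52.1% of genes with at least 20 CPM, so the count does not set the regulators apart. Egln3, a HIF prolyl hydroxylase that is itself a HIF target, rose from 27.6 ± 0.983 to 53.99 ± 1.80 CPM (log2 fold change 0.97 with adjusted p = 9.42e-16). Epas1, which encodes HIF-2α, rose from 764 ± 3.65 to 1049 ± 16.3 CPM (log2 fold change 0.46 with adjusted p = 7.83e-17), and Rptor, a subunit of the growth kinase complex mTORC1, by 0.12 on the log2 scale. Txnip, an inhibitor of glucose uptake, fell from 252 ± 4.41 to 200.1 ± 3.51 CPM (log2 fold change -0.33 with adjusted p = 4.68e-12). Nfe2l2, which encodes NRF2, a known activator of G6pdx and other NADPH-forming genes, fell from 55.1 ± 0.910 to 38.9 ± 1.39 CPM (log2 fold change -0.50 with adjusted p = 5.04e-11), and Ogt, the O-GlcNAc transferase, by 0.29 on the log2 scale. Mycn fell from 4.46 ± 0.435 to 0.512 ± 0.0284 CPM, while Myc, another activator of glycolytic genes, did not pass, at 68.2 ± 2.29 against 68.4 ± 0.719 CPM (adjusted p = 0.984).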

How the data were processed

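The build was mm10 and the tools were STAR 2.5.3a, bcl2fastq 2.17.1.14 and Partek, per the submitters' processing notes. The authors deposited estimated counts per gene (50.4% not exactly whole as printed, with no tolerance, and not normalized between libraries). The authors also deposited a normalized signal table for 13824 genes, in which every value equalled the count plus 1 times a factor per library, within 1%. The annotation release, strand setting and treatment of shared reads are not given in the sources used here.

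Estimated counts were rounded and tested with edgeR 4.0.16 in R 4.3.3 (quasi-likelihood F test, TMM, filterByExpr with minimum count 10 and total 15, group as the only term), with Benjamini-Hochberg adjustment over 16654 genes. SE is the log2 fold change over the root of F. Of the listed genes, each member was named, with per-library values for those called at 20 CPM or more and for isozymes of opposite sign, and up to 4 other genes per list and direction by smallest p. Further per-library values were added after they were seen. Members and lists were chosen with earlier results of these data known. Positions are 1-based, from the deposited table (stop less 1). Transcript lengths come from GENCODE M21, in which 19917 genes had the same identifier and position. Copies were sought with blastn 2.17.0. Alternatives were other scalings and filters, DESeq2 1.42.0, limma 3.58.1, a replicate block, a 1.2-fold test and each library left out.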

Additional observations from a re-analysis of the deposited data

How the results depend on the processing

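The 22 members called in the edgeR fit were also called with no filter, with at least 50 counts in 3 libraries, with library size only or DESeq2 size factors, by DESeq2, limma-voom and limma on the authors' normalized values and with copies summed (added after seeing the data). The test against 1.2-fold called 1317 genes, 6 members (5 higher, 1 lower), 3 other pathway genes and 5 regulators. Leaving out single libraries gave 21 to 24 members and 5232 to 5519 genes; the log2 fold change of Pgd ran from -0.032 to 0.016, and the log2 ratios of Hk1 to Hk2 from -0.019 to 0.033 and of Pfkl to Pfkp from -0.021 to 0.039. Library size alone moved the median of all genes to -0.03 and Tkt to -0.01. Same-numbered libraries did not vary together (correlations of -0.0402 to -0.0177), which cannot show whether they share a mouse or culture. The replicate number was used here as a name of libraries only. With a replicate block 5817 genes and the same 22 members were called. Members had 92 to 207920 counts per library, and the lowest, Eno2 and Aldoc, were the calls that a single library decided.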
